A study of Mus musculus with 3 samples.

Results

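Laminins and nidogens are the proteins around which basement membranes are built, and the RNA of 10 of their genes was measured in cultured mesenchymal stem cells. The 10 comprise the laminin alpha chain genes Lama1, Lama2, Lama3, Lama4 and Lama5, the beta chain genes Lamb1 and Lamb2, the gamma chain gene Lamc1 and the nidogen genes Nid1 and Nid2. They were taken by gene symbol, under a rule that sets no threshold on a measured value, from a list drawn up with earlier results of these data known, and all 10 were present among the 43346 genes of the table. The cells were adipose-derived mesenchymal stem cells (MSCs, adherent stromal cells grown out of tissue) from fat pads of adult mice of the strain C57BL/6, cultured in advanced MEM with 10% FBS. The 3 libraries form 1 group with no treated, mutant or control samples, and conditions could not be compared. The labels name no fat depot, passage number or animal, and the SDs below may therefore be technical.

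A laminin is a trimer of 1 alpha, 1 beta and 1 gamma chain that coil around each other and are assembled in the endoplasmic reticulum before secretion. The trimers bind to integrins and dystroglycan at the cell surface through the end of the alpha chain, and many of them, though not all, polymerise into a sheet. Nidogens bind a site on the gamma 1 chain and also bind type IV collagen and perlecan, by which they link the laminin sheet to the collagen network. Trimers are named by the numbers of their chains, so that laminin-511 holds alpha 5, beta 1 and gamma 1. In blood vessels the chains alpha 4 and alpha 5 are the usual endothelial ones, alpha 2 is known from muscle and nerve, alpha 3 from epithelia, and alpha 1 from early embryos.

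Levels are RPKM, which scales the reads of a gene to the length of its gene model and to the library total, so that genes of different length can be set side by side. Genes that reached an RPKM of 1 in each of the 3 libraries are called detected. The values fell on steps of whole reads, from which library totals of 28791578, 32962010 and 32001147 reads were recovered for libraries 1, 2 and 3, and the 10 genes held 94043, 109303 and 103944 of these reads. Counting error was small at this depth for every member except Lama3, and the 95% intervals given below are exact Poisson intervals that cover counting error only. All 10 surface marker genes fixed for MSCs were detected, though the lowest, Nt5e, stood near the threshold at 1.15 ± 0.0916 RPKM (SD, n = 3). 1 of the 8 haematopoietic markers was detected, Cd14, which encodes a lipopolysaccharide coreceptor, at 2.63 ± 0.0764 RPKM (SD, n = 3). Itgam missed the threshold in library 1 only, at 0.850 RPKM, against 1.03 and 1.36 RPKM in libraries 2 and 3. H2-Ab1 reached it in library 3 only, at 0.785, 0.926 and 1.14 RPKM in libraries 1, 2 and 3. The pan-leukocyte gene Ptprc stood at 0.136 ± 0.00706 RPKM (SD, n = 3).

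9 of the 10 laminin and nidogen genes were detected, Lama3 being the exception, against 47.4% of 22032 protein-coding genes and 28.3% of all genes. The median of the 10 mean levels was 23.9 RPKM, against 0.812 RPKM over protein-coding genes and 6.55 RPKM over the 10447 detected protein-coding genes. The nidogens were the highest members, followed by the gamma 1 and beta chains, and the alpha chains were the lowest. The highest, Nid1, ranked 143 among protein-coding genes and the lowest, Lama3, ranked 13094.

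**Figure D1:**
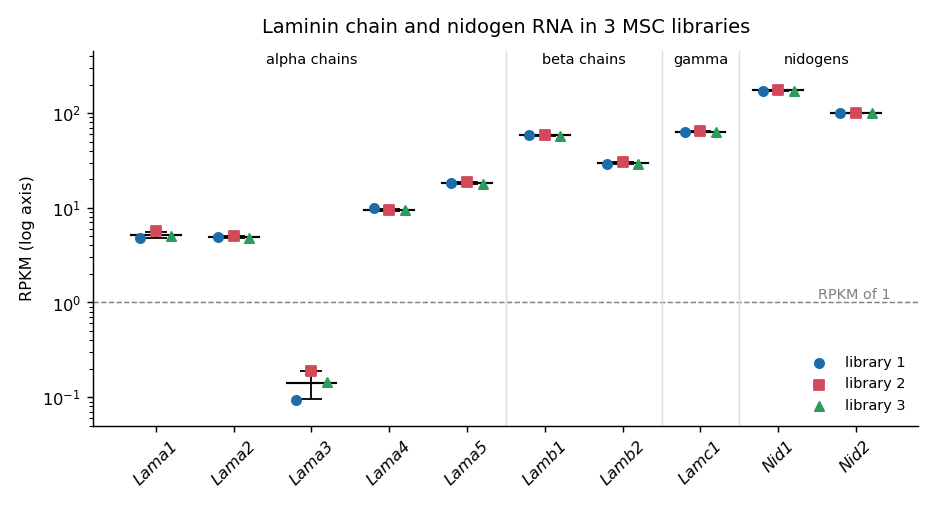
RPKM of each laminin chain and nidogen gene on a log axis, with 1 point per library (circle, square and triangle for libraries 1, 2 and 3), the mean as a long line and the SD as capped bars (n = 3). Nid1 and Nid2 lie at the top at 173 and 99.9 RPKM, the alpha chains lie below the beta and gamma chains, and Lama3 alone lies under the dashed line at an RPKM of 1.

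Alpha chains set the receptor binding of a laminin, and Lama5 had the highest deposited RPKM among them, an order with Lama4 that turned when reads were divided by the longest transcript. Lama5 (chromosome 2, 180176373 to 180225859, minus strand of mm10) had 18.2, 18.6 and 17.7 RPKM in libraries 1, 2 and 3. Lama4 (chromosome 10, 38965515 to 39110188, plus strand) encodes a chain with a shortened amino-terminal arm and had 9.83, 9.41 and 9.48 RPKM. The ranges of both genes did not overlap, and Lama5 exceeded Lama4 by 0.92 ± 0.05 on the log2 scale (SD, n = 3). Lama1 (chromosome 17, 67697259 to 67822647, plus strand) had 4.85, 5.64 and 5.01 RPKM. Lama2, the chain whose loss causes muscular dystrophy in mice and people (chromosome 10, 26980036 to 27619758, minus strand), had 4.87, 5.06 and 4.80 RPKM. As deposited the ranges of Lama1 and Lama2 overlapped, their log2 difference of 0.07 ± 0.08 was smaller than its SD, and Lama1 was the higher in 2 of 3 libraries. By longest transcript Lama2 was the higher in 3 of 3, at 8.34 ± 0.235 RPKM, against 5.16 ± 0.421 RPKM for Lama1 (SD, n = 3 each).

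Lama3, an alpha chain of epithelia, had 0.0937, 0.189 and 0.145 RPKM in libraries 1, 2 and 3, from 29, 67 and 50 reads. Library 1 was the lowest and library 2 the highest, at 2.02 times the level of library 1. The 95% counting interval was 0.147 to 0.240 RPKM in library 2 and 0.0628 to 0.135 RPKM in library 1, so these did not overlap. In all 3 libraries the reads exceeded the floor of 3 reads, which for this gene model is 0.00970, 0.00847 and 0.00872 RPKM. Lamb3, a beta chain of epithelia that is not among the 10, had 0.0893, 0.0826 and 0.118 RPKM, below an RPKM of 1 in every library.

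Lamb1, Lamb2 and Lamc1 stood above the alpha chains. Lamc1, which encodes the gamma chain shared by most laminins (chromosome 1, 153218922 to 153332786, minus strand), had 63.8, 64.4 and 63.3 RPKM. Lamb1 (chromosome 12, 31265234 to 31329644, plus strand) had 58.8, 59.1 and 57.4 RPKM. Lamb2, the beta chain of neuromuscular junctions, kidney glomeruli and many vessel walls (chromosome 9, 108479736 to 108490530, plus strand), had 29.2, 30.6 and 29.3 RPKM. As deposited the 3 genes kept this order in every library, with no overlap of ranges, whereas by longest transcript Lamb1 stood above Lamc1. Lamc1 exceeded Lamb1 by 0.13 ± 0.01 and Lamb1 exceeded Lamb2 by 0.98 ± 0.03 on the log2 scale (SD, n = 3 each). Lamb2 made up 33.7 ± 0.488% of the summed RPKM of both beta chains. Lamc3, a gamma chain that is not among the 10, was detected at 5.45, 4.58 and 4.59 RPKM, and made up 7.09 ± 0.678% of Lamc1 and Lamc3 together. Library 1 stood above the others for Lamc3.

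The alpha chains summed to 38.0 ± 0.881 RPKM, against 63.8 ± 0.515 RPKM for Lamc1 (SD, n = 3 each). The log2 ratio of the alpha sum to Lamc1 was -0.75 ± 0.02, and the alpha sum was below Lamc1 in all 3 libraries. The beta chains summed to 88.1 ± 1.56 RPKM, or 1.38 ± 0.0132 times Lamc1. Lama5 held 47.9 ± 0.190% of the alpha sum, Lama4 25.2 ± 0.944%, Lama1 13.6 ± 0.852%, Lama2 12.9 ± 0.0757% and Lama3 0.375 ± 0.120% (SD, n = 3 each).

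The lowest of the 3 chain RNAs was then read off for trimers known in mammals, as a description of RNA only, since neither protein nor assembly was measured. For laminin-511 and laminin-521, which are found in most adult basement membranes, the lowest chain was Lama5, at 18.2 ± 0.438 RPKM. For laminin-411 and laminin-421, the laminins of vessel walls, it was Lama4 at 9.57 ± 0.226 RPKM as deposited, and 19.1 ± 0.452 RPKM by longest transcript. Lama1 was the lowest chain of laminin-111 and laminin-121, at 5.17 ± 0.421 RPKM, and Lama2 that of laminin-211 and laminin-221, at 4.91 ± 0.138 RPKM as deposited and 8.34 ± 0.235 RPKM by longest transcript (SD, n = 3 each). In each of these trimers the alpha chain was the lowest. In the gamma 3 laminins 213, 423 and 523, Lamc3 was the lowest by mean, at 4.87 ± 0.500 RPKM in the last 2 and, with Lama2 lower in library 1, at 4.68 ± 0.163 RPKM in laminin-213.

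Both nidogens stood above every laminin chain as deposited, though with reads divided by the longest transcript Nid2 and Lamb1 overlapped. Nid1 (chromosome 13, 13437551 to 13512269, plus strand) had 171, 175 and 173 RPKM, from 29800, 34952 and 33470 reads. Nid2 (chromosome 14, 19751265 to 19811787, plus strand), whose protein can take the place of nidogen 1 in most mouse tissues, had 100.4, 99.6 and 99.7 RPKM. The ranges were apart by far more than the spread between libraries, and Nid1 exceeded Nid2 by 0.79 ± 0.02 on the log2 scale (SD, n = 3). Nid1 stood at 2.71 ± 0.0265 times Lamc1, and both nidogens together at 4.28 ± 0.0253 times Lamc1 (SD, n = 3 each). Annotated exons of Nid2 share 437 bases with those of Rtraf on the opposite strand, which had 46.0 ± 1.01 RPKM (matched by identifier to its older symbol). The sources do not state that counting used strand, nor whether the deposited Nid2 model, shorter than the annotated exons, holds that stretch. If it does, reads from the stretch, in length 8.95% of the model, cannot be told apart.

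Promoter sequences of 5 of the 10 genes were found in RefSeq's table for GRCm38.p6 (the mm10 assembly), and the 250 bases before RefSeq's start are shown for the highest member, for the highest alpha chain and for an alpha chain of low level. Each is written 5′ to 3′ on the strand of the gene, with every CG dinucleotide in capitals. Nid1 is chr13:13437352-13437601 (plus strand), Lama5 is chr2:180225860-180226109 (minus strand) and Lama2 is chr10:27616943-27617192 (minus strand). The Lama2 window lies inside the outermost limits of its M21 gene, because a retained-intron transcript begins 2816 bases before RefSeq's start, and the longest transcript, which is coding, begins 99 bases after that start. RefSeq's start of Nid1 is 51 bases inside the M21 gene, that of Lamb1 59 and that of Lamb2 126, so these windows include some bases that M21 counts as transcribed.
Nid1: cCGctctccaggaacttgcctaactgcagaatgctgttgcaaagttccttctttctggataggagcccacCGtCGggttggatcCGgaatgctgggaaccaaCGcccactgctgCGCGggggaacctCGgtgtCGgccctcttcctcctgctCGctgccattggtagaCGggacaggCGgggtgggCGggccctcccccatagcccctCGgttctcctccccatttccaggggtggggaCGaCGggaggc
Lama5: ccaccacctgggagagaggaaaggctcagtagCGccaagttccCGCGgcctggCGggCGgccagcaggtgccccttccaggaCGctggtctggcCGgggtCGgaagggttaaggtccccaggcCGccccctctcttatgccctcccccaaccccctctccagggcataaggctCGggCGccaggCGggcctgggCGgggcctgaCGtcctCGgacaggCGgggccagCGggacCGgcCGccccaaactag
Lama2: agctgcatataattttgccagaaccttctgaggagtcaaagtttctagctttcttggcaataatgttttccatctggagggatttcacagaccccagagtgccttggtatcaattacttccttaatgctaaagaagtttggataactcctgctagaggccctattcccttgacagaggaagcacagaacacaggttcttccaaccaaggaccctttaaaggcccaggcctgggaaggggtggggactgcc
The Nid1 window held 16 CG dinucleotides, the Lama5 window 19 and the Lama2 window 0, against a median of 6 over the 32851 windows of the table, each placed at a RefSeq start in the same way. The windows of Lamb1 and Lamb2 held 14 and 3. The GC box GGGCGG, searched on both strands with overlaps counted, matched 4 times in the Lama5 window, 2 times in that of Lamb1, 1 time in that of Nid1 and 0 times in those of Lama2 and Lamb2, and 32.7% of all promoters hold it. The motif TATAAA, searched likewise, matched in none of the 5 windows and is held by 12.4% of all promoters. A match describes the letters in these windows, and binding of a factor was not measured.

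The length by which reads are divided bears on any order between these genes, since some of their gene models join exons of several transcripts. From the whole reads the deposited values were found to use a model of 12069 bases for Lama4, whose longest annotated transcript is 6046 bases. The model was 16339 bases for Lama2, against 9614 bases for its longest transcript, and 9918 bases for Lamb1, against 5784 bases. For the other 7 members the model was between 0.993 and 1.09 times the longest transcript. Divided by the longest transcript instead, Lamb1 stood at 100.2 ± 1.60, Lama4 at 19.1 ± 0.452 and Lama2 at 8.34 ± 0.235 RPKM (SD, n = 3 each). On that scale Lama4 exceeded Lama5 by 0.07 ± 0.05 (log2, higher in 3 of 3 libraries), the ranges of Lamb1 and Nid2 overlapped, and Lama2 exceeded Lama1 by 0.69 ± 0.08. Lama4 then held 37.5 ± 1.16% and Lama5 35.7 ± 0.213% of the alpha sum. Nid1 remained the highest and Lama3 the lowest on both scales, and the alpha sum remained below Lamc1 with a log2 ratio of -0.44 ± 0.01. Which transcripts the reads came from was not measured.

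**Figure D2:**
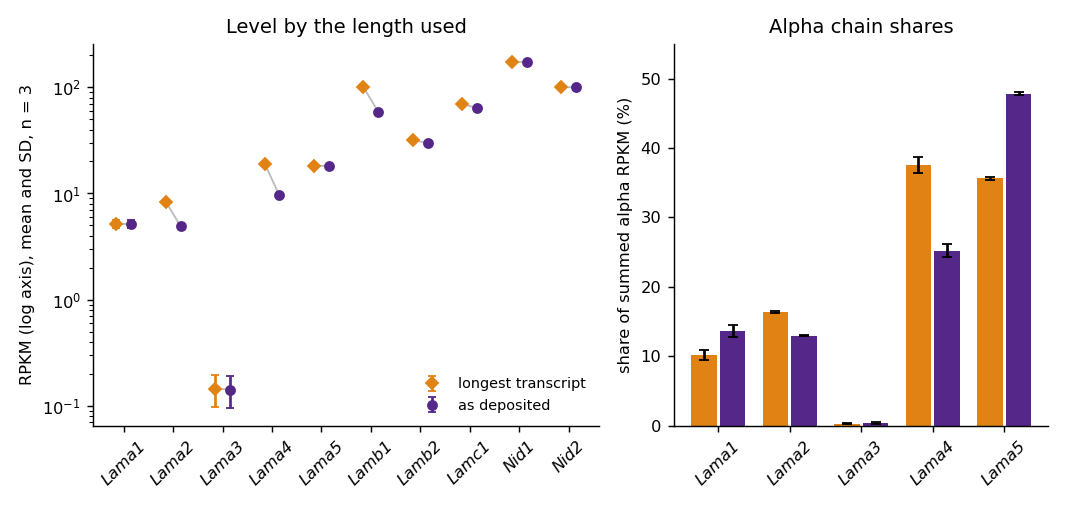
Left, mean RPKM and SD (n = 3, log axis) of each gene with reads divided by the longest annotated transcript (diamonds) and as deposited (circles). Right, the share of each alpha chain in the summed alpha RPKM on the same scales (bars with SD, n = 3). Lama2, Lama4 and Lamb1 move and the others hardly do, and the shares of Lama4 and Lama5 are 37.5% and 35.7% by longest transcript but 25.2% and 47.9% as deposited.

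Among the 9 members with a mean RPKM of 1 or more, fold differences between the libraries were small, with a median highest-to-lowest ratio of 1.05. Of these 9, 0 had a highest library 25% or more above the lowest, against 12.4% of 10677 protein-coding genes of that level. For so few genes 0 lies near that share, so it is not read as a trait of the members. Lama3, left out of this count for its low level, had a ratio of 2.02. Lama1 had the widest ratio of the 9, at 1.16, with library 2 the highest. Its variance between libraries was 10.3 times that of counting, against a median of 2.35 over 4494 protein-coding genes with 1000 reads or more. Nid2 had the narrowest, at 1.01, with a variance of 0.289 times that of counting, and for Lamc1 the value was 1.12. Lama5, Lamb1, Lamb2 and Nid1 lay between 3.91 and 4.78 times counting variance, above the median of 2.35 but below the upper quartile of 5.14. Lama2 and Lama4 lay below the median, at 2.07 and 1.95. The 4494 genes were limited to those with whole reads at the annotated exon length plus 1 base. They were not matched to the members in read number.

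Library 2 was the highest for 8 of the 10 genes, Lama4 and Nid2 being highest in library 1. Of these 8, only Lama1 had a 95% counting interval in library 2 clear of those in libraries 1 and 3. It was 5.38 to 5.91 RPKM, against 4.59 to 5.11 and 4.76 to 5.27 RPKM. For the rest the order of the libraries lay partly within counting error. The 8 include Lama3, which was not detected, whereas the shares that follow are over detected genes. Over detected protein-coding genes library 2 was the highest for 33.4%, and over those with a gene model of 5000 bases or longer, a length class added after the values were seen that holds 9 of the 10 members, for 38.1%. After scaling every library to a common median ratio, library 2 was the highest for the same 8 genes, against 33.6% of detected protein-coding genes and 38.6% of those with long models. With each library rescaled to the same sum (TPM) it was the highest for 2, since Gm23935, a small RNA gene, held 80.6% of the RPKM sum in library 1, 86.1% in library 2 and 85.3% in library 3. Of the 9 members plotted the differences as deposited were at most 0.13 from the mean on the log2 scale.

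**Figure D3:**
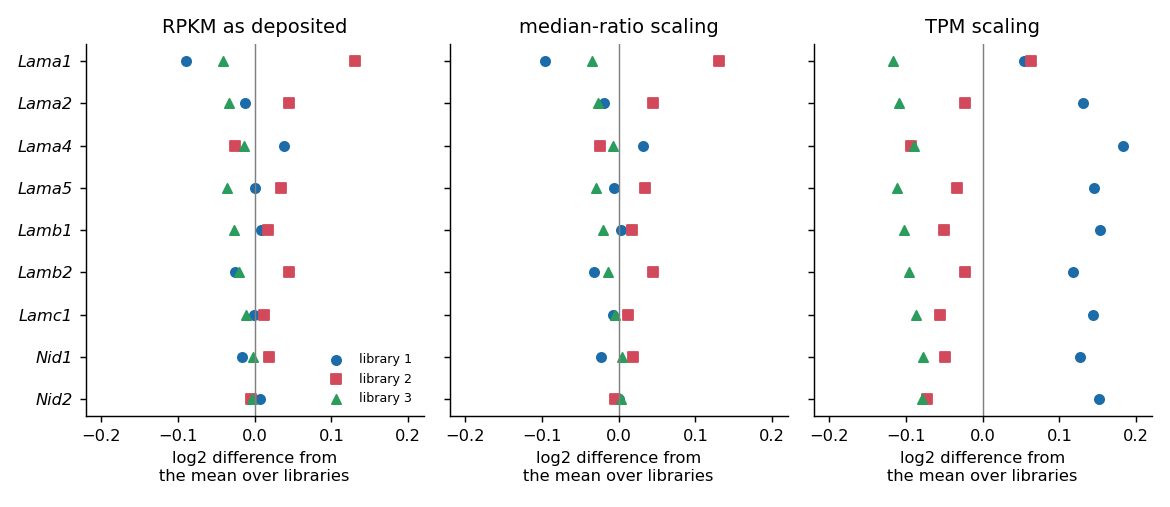
Log2 difference of each library from the mean over the 3 libraries for the 9 members with a mean RPKM of 1 or more (circle, square and triangle for libraries 1, 2 and 3), on the RPKM as deposited, after median-ratio scaling and after TPM scaling. On the first 2 scales the points lie at most 0.13 from 0 with library 2 on the right for 7 of the 9, and under TPM scaling library 1 moves to the right for 8 of the 9.

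Genes for receptors of laminins were mostly detected beside the chains, with 12 of 14 above the threshold and a median of 16.4 RPKM. The highest was Rpsa at 589 ± 10.1 RPKM, a ribosomal protein gene whose product is also described as a laminin receptor and whose many pseudogene copies make its reads uncertain. The shared integrin subunit gene Itgb1 followed at 329 ± 13.0 RPKM, then the syndecan gene Sdc4 at 232 ± 16.5 and the dystroglycan gene Dag1 at 42.8 ± 1.42 RPKM. The genes not detected were Itga6, at 1.03 ± 0.0911 RPKM, and Itgb4, at 0.375 ± 0.0251 RPKM (SD, n = 3 each). Itga6 missed the threshold in library 1 only, at 0.954 RPKM, against 1.01 and 1.13 RPKM in libraries 2 and 3. The products of Itga6 and Itgb4 can pair as a laminin-binding integrin of epithelial cells.

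Of 20 other basement membrane genes 17 were detected, with a median of 11.8 RPKM, against 23.9 RPKM for the 10 members. The median of the members leaves out the laminin chain genes Lamb3 and Lamc3, at 0.0967 and 4.87 RPKM, and depends on which chains were listed. The highest of the 20 was Sparc, which encodes a collagen-binding matricellular protein, at 1307 ± 59.6 RPKM. The type IV collagen gene Col4a1 followed at 706 ± 17.2 RPKM. The fibulin gene Fbln2, whose product binds nidogen and laminin chains, came next at 597 ± 14.5 RPKM, before Col4a2, whose product joins that of Col4a1 in the common type IV collagen, at 437 ± 4.59 RPKM. Col4a3 and Col4a4, collagen IV chains of the kidney filter, were not detected at 0.983 ± 0.0241 and 0.745 ± 0.108 RPKM, nor was Egflam, which encodes the dystroglycan ligand pikachurin, at 0.0238 ± 0.0144 RPKM (SD, n = 3 each).

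All 16 genes for folding, glycosylation and cleavage of these proteins and of dystroglycan were detected, with a median of 44.6 RPKM. The chaperone genes Hsp90b1 and Hspa5 had 379 ± 7.93 and 157 ± 3.61 RPKM, the disulfide isomerase gene P4hb 343 ± 7.36 RPKM and the membrane protease gene Mmp14 250.2 ± 7.62 RPKM. The lowest was Pomt1, an O-mannosyltransferase gene needed for dystroglycan to bind laminin, at 2.05 ± 0.194 RPKM (SD, n = 3 each).

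**Figure D4:**
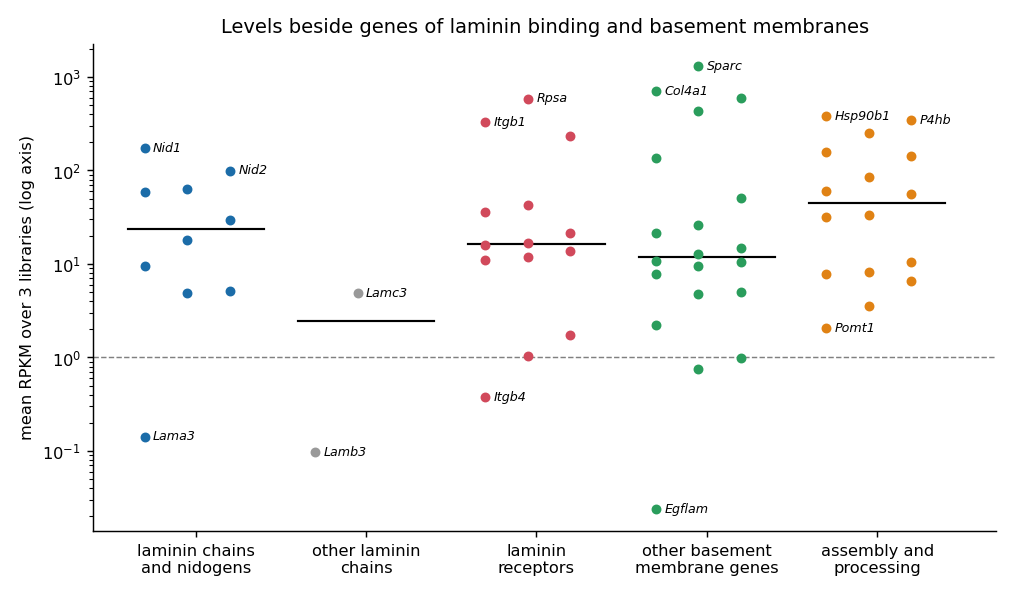
Mean RPKM over the 3 libraries (log axis), 1 point per gene, for the 10 laminin chain and nidogen genes, the laminin chains Lamb3 and Lamc3, 14 laminin receptor genes, 20 other basement membrane genes and 16 assembly and processing genes, with the median of each list as a line and an RPKM of 1 dashed. The medians are 23.9, 2.48, 16.4, 11.8 and 44.6 RPKM, and Lama3 stands with Lamb3, Itgb4, Col4a3, Col4a4 and Egflam below the dashed line.

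Among those 4 lists of other genes, the levels nearest to Nid1 were those of Hspa5 and Ctsl, at Euclidean distances of 0.24 and 0.49 on log2(RPKM + 1) over the 3 libraries. Those nearest to Lamc1 were Adamts1 and Mmp2, at 0.17 and 0.31, and those nearest to Lama3 were Lamb3 and Egflam, at 0.14 and 0.28. With 3 libraries this likeness is one of level only.

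Other cell types of a fat pad also make laminins, and their markers were measured in the same libraries. Of 10 endothelial genes only Kdr, which encodes a VEGF receptor, was detected, at 1.28 ± 0.0891 RPKM, and the list summed to 2.62 to 2.76 RPKM per library. Cdh5 followed at 0.657 ± 0.0480 RPKM, then Tek at 0.317 ± 0.0578, Egfl7 at 0.305 ± 0.0921 and Emcn at 0.0841 ± 0.0362 RPKM. Cldn5 was at 0, and Pecam1, Vwf, Tie1 and Erg were below 0.1 RPKM. 0 of 8 epithelial genes were detected, the highest being Krt14 at 1.09 ± 0.194 RPKM, and the list summed to 1.97 to 2.47 RPKM. 1 of 8 Schwann cell genes, Mbp, was detected, at 3.04 ± 0.222 RPKM, and the list summed to 3.10 to 3.54 RPKM. The defining gene Sox10 was near 0 at 0.0158 ± 0.0175 RPKM and Foxd3 was at 0 (SD, n = 3 each).

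Of 8 adipocyte genes 2 were detected, with Lpl the highest at 16.9 ± 1.02 RPKM and Adipoq and Cfd at 0. Of 7 skeletal muscle genes 1 was detected, Des at 149 ± 3.23 RPKM, which the mural list also holds, and Ckm and Myf5 were at 0. All 8 mesothelial genes were detected, led by the uroplakin gene Upk1b at 70.1 ± 5.23 RPKM, and summed to 232, 213.1 and 217 RPKM in libraries 1, 2 and 3. Library 1 was also the highest for the adipocyte, Schwann and epithelial sums and for Lama4 and Lamc3, and by less than 1% for Nid2, whose highest library was 3 after median-ratio scaling. The Schwann sums of libraries 1 and 2 were close, at 3.54 and 3.48 RPKM. Library 1 was the lowest for the mural, MSC and haematopoietic sums. A link between these sums and the chain levels was not tested. 6 of 8 mural genes were detected, led by the smooth muscle actin gene Acta2 at 2328 ± 58.7 RPKM, and summed to 3852, 4015 and 4064 RPKM (SD, n = 3 each). The part of mesothelial or mural cells in the laminin and nidogen levels was not tested. In these bulk libraries a difference in the number of cells of a type and one in RNA per cell cannot be told apart.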

How the data were processed

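RNA was purified with the miRNeasy kit and libraries were made with the TruSeq V2 kit, per the labels' protocols. The authors deposited 1 table of RPKM values for 3 libraries, in 1 column each. Per the submitters' processing notes, reads were placed on mm10. The sources used here do not give the aligner, the counter or the annotation release. RPKM as deposited was the main scale, and 42462 identifiers matched GENCODE M21 (mm10).

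Library totals were recovered from exact ratios between low values of the libraries. With each gene's annotated exon length plus 1 base, 70.2% of 27301 genes then gave whole reads in all 3 libraries (within 0.001), as did 7 of the 10 members. For the other 3 members the shortest length that gave whole reads (within 1e-06) was taken. In simulated libraries of 42456 genes, 3 of 3 totals and the length and reads of 183 of 200 checked genes were recovered; a gene whose reads share a divisor with its length is given too short.

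The design has 1 group, and a paired difference between genes over 3 libraries cannot go below p = 0.25 in a two-sided exact test, so no p-values are given. Values are means ± SD over libraries (n = 3), and log2 ratios carry no pseudocount. The members and lists were chosen with earlier results of these data known. Named genes were all members, the 4 highest, the lowest and every undetected gene of each receptor, basement membrane and processing list, Lamb3 and Lamc3, and the leading genes of each cell type list; 1 gene that this rule would name is not reported here, and further cell type markers near 0 were named after their values were seen. Alternatives were other thresholds, scalings, pseudocounts, lengths and leaving out each library. Added after seeing the data were TPM over protein-coding genes, the long-model class, Lamc3's share and the count of members highest in library 2 under every setting. Computation used numpy 2.4.6, scipy 1.17.1, pandas 2.3.3 and matplotlib 3.10.9 under Python 3.11.15.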

Additional observations from a re-analysis of the deposited data

How the results depend on the processing

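No paired analysis was possible because the labels give 1 group. The count of detected members was 9 at thresholds of 0.5 and 2 RPKM, under each scaling, by longest transcript and without any 1 library. Levels of all 10 members moved by more than their SD under TPM scaling and TPM over protein-coding genes, Nid1 to 61.1 and 875, which rescale whole libraries. Among shares, ratios and ranks, dividing by the longest transcript moved most: 3 of 10 members kept their rank, the alpha shares became 10.1% for Lama1, 16.4% for Lama2, 37.5% for Lama4 and 35.7% for Lama5, and the Lamb2 share became 24.2%. The log2 ratios then became 1.31 for Nid1 to Lamc1, -0.44 for the alpha sum to Lamc1 and 0.93 for the beta sum to Lamc1, with no change of sign. The models that join exons of several transcripts set this by construction. TPM scaling shifted the median detected gene by -1.36, -1.57 and -1.58 on the log2 scale in libraries 1, 2 and 3, raised the median highest-to-lowest ratio to 1.17 and left 2 members highest in library 2, against 8 as deposited. Without the filter on low values 1 member, Lama3, had a highest library 25% or more above the lowest. Median-ratio scaling and the pseudocounts moved no result by more than its SD or changed a count. Among the members depth limits Lama3, which rests on 146 reads in all, against 4626 or more for every other member.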

Other observations

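The model lengths behind the deposited values differed from the GENCODE M21 exon union for 3 of the 10 members. They were 6047 bases against 6943 for Nid1, 4885 bases against 5174 for Nid2 and 9519 bases against 9681 for Lama1. The longest M21 transcripts of these genes are 6091, 4876 and 9526 bases.

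Antisense genes of the annotation also share exon bases with members. Gm48084 shares 631 bases with Lama2, 3.86% of its model, and Gm48682 143 bases with Nid1, 2.36% of its model, and neither identifier was matched in the table. Gm29200 shares 197 bases with Lama3 and was listed at 0 in all 3 libraries. Outside the members, Gm13441 shares 382 bases with Lamc3, 6.27% of its model, and had 0.129 ± 0.0490 RPKM (SD, n = 3).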
